A study of Mus musculus with 9 samples.

Results

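Atf4 and 9 genes of asparagine synthesis, serine synthesis, mitochondrial folate metabolism and stress feedback were followed across 9 RNA sequencing libraries of cultured mouse cells. The other 9 genes were Asns, Phgdh, Psat1, Psph, Shmt2, Mthfd2, Aldh1l2, Trib3 and Chac1. They were taken as the rows of the count table whose symbol equals one of these names. Each name matched 1 row, so 10 of the 47729 genes in the table are described. All 10 were among the 15696 genes that passed the filter on low counts, and the lowest count of any of them in any library was 68 (Trib3 in NSC 5).

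The 9 libraries came from 3 groups of 3 cultures, and the series describes the cultures of each cell type as independent. NSC (cultures 1, 3 and 5) are wild-type primary neural stem cells taken from the subventricular zone, where new neurons arise along the wall of the lateral ventricle. LTR (1, 2 and 3) are tumour cells derived from such neural stem cells, with the genotype label lgT/Ras. The third group, labelled NF1 (1, 2 and 3), holds tumour cells of the same origin with the genotype label shp53, Nf1-/-, CDK4. All groups were kept in the same neural stem cell culture for up to 10 passages, so no group was sampled from a tumour in an animal. The series calls its transformed lines GSC1 and GSC2, and the sources used here do not say which of them is LTR. Whether the 3 cultures of a line were transformed separately is not stated either, so the p-values measure the spread between these cultures.

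ATF4 is the transcription factor at the end of the integrated stress response. Kinases that sense amino acid shortage, unfolded protein, haem shortage or double-stranded RNA phosphorylate the translation factor eIF2alpha, which lowers protein synthesis in general while translation of the Atf4 mRNA increases. ATF4 then activates genes for amino acid synthesis and uptake, for charging tRNA and for feedback on the response. Serine made from glucose by PHGDH, PSAT1 and PSPH is split by SHMT2 in mitochondria, and MTHFD2 oxidises the one-carbon unit that is released. The pathway feeds purine and thymidine synthesis in proliferating cells, neural progenitors and gliomas among them. ALDH1L2 instead oxidises the unit to carbon dioxide, with NADPH production.

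Total counts lay between 28600479 and 57231024 per library. On the first principal component, which held 70.6% of the variance, NSC (-150.4 to -136.3) lay apart from 5 of the tumour libraries (84.63 to 108.7). NF1 2 lay between them at -21.18, and it stood apart on the next component too (8.93% of the variance), at -102.7 against -18.88 to 34.21 for the others. The count headers give lane L001 for NSC and L007 for every tumour library, so a lane effect and a group effect cannot be told apart. The check of the labels was partial: Trp53 mRNA was higher in the libraries labelled shp53 (217, 151 and 221 CPM, the count relative to the TMM-scaled library total) than in NSC (107, 114 and 101 CPM), with a log2 fold change of 0.87 ± 0.2 (SE) and an adjusted p of 0.0141. Trp53 was higher in LTR too (223, 281 and 255 CPM; 1.23 ± 0.2, adjusted p = 0.00258), so the difference is not particular to the shp53 label. Cdk4 stood at 795, 393 and 1120 CPM in the libraries labelled CDK4 against 334, 456 and 325 CPM in NSC (1.05 ± 0.34, adjusted p = 0.053), with NF1 2 inside the NSC range. Cdk4 was higher in LTR too (1020, 935 and 1020 CPM; 1.41 ± 0.35, adjusted p = 0.0135), so its difference is not particular to the CDK4 label. Nf1 stood at 59, 97.2 and 40.1 CPM in the libraries labelled Nf1-/- against 110, 82.5 and 114 CPM in NSC, which overlap. In LTR Nf1 was similar, at 80, 40.3 and 58 CPM. Counts per gene cannot show a deletion of single exons. The third group is therefore called NF1-labelled here. The 10 markers of neural stem cells included 6 that were lower in LTR and 1, Pax6, that was higher (median log2 fold change -2.88), and 5 were lower in the NF1-labelled group (-2.08). Among them Slc1a3 fell from a mean of 771 CPM in NSC to 0.068 and 1.76 CPM, Egfr from 191 to 8.99 and 3.13 CPM and Olig2 from 814 to 62.2 and 167 CPM, while the differences of Sox2, Nes and Vim did not pass the test in either group. The sum of the 10 was 13600 to 14500 CPM in NSC, 6840 to 12700 CPM in LTR and 11200 to 13600 CPM in the NF1-labelled libraries, most of it Vim in the tumour groups (means of 8490 and 10400 CPM). The summed mural cell and fibroblast, astrocyte and neuron markers were lower in the tumour groups: 43.4 to 1030 CPM in NSC for 6 mural cell and fibroblast markers against 2.87 to 5.49 CPM in LTR and 2.39 to 40.4 CPM in the NF1-labelled group, 746 to 755 CPM for 5 astrocyte markers against 204 to 326 and 219 to 456 CPM, and 215 to 302 CPM for 5 neuron markers against 23 to 70 and 20.7 to 43.3 CPM. In NSC the mural cell and fibroblast sum was mostly Col1a1 and Col1a2 (means of 375 and 226 CPM). Dcn, Lum and Rgs5 were near absent there too, with NSC means of 0.0802, 0.0745 and 0.339 CPM. The neuron sum in NSC was mostly Map2 (mean of 207 CPM). Not every marker in these sums was lower. Gja1, most of the astrocyte sum in the tumour groups, had means of 264 CPM in NSC, 245 CPM in LTR and 275 CPM in the NF1-labelled group. Those of the neuron marker Tubb3 were 27.1, 34.8 and 25 CPM. The mural cell marker Rgs5 stood at 38.4 CPM in NF1 2 and at 0.51 CPM or less in every other library. The 6 microglia and myeloid markers summed to 1.56 to 5.65 CPM in NSC, 0.0763 to 0.179 CPM in LTR and 0.0869 to 0.864 CPM in the NF1-labelled group. The sum of the 4 endothelial markers went the other way at very low levels, with 0.415 to 1.13, 0.741 to 1.67 and 1.06 to 2.85 CPM, and only Cdh5 was higher in both tumour groups (log2 fold change 2.7, adjusted p = 0.0176, and 3.3, adjusted p = 0.012). Tek had means of 0.339 CPM in NSC, 0.129 CPM in LTR and 0.324 CPM in the NF1-labelled group. Those of Pecam1 were 0.244, 0.205 and 0.168 CPM. Cldn5 had no count in any group, and Cx3cr1, Itgam, Rbfox3 and Lum had no count in either tumour group. Those genes were very low in NSC as well, with means of 0.326, 0.0718, 0.012 and 0.0745 CPM. Fewer cells of a type and less RNA per cell cannot be told apart in such bulk libraries, and the part of these differences in the results that follow was not tested.

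Of the 10 genes, 8 were higher in LTR than in NSC and 8 were higher in the NF1-labelled libraries than in NSC, and none was lower in either comparison. Asns, Shmt2, Mthfd2, Psph, Atf4, Trib3 and Chac1 passed the test in both, Phgdh in LTR only and Aldh1l2 in the NF1-labelled group only, while Psat1 passed in neither. The difference between the 2 tumour groups passed for none of them, Phgdh and Aldh1l2 included. Over all genes tested, 14.9% were higher and 20.9% lower in LTR than in NSC, and 10.1% were higher and 13.1% lower in the NF1-labelled group than in NSC, by edgeR's quasi-likelihood test with Benjamini-Hochberg adjustment. The median log2 fold change of the 10 genes was 1.86 for LTR against NSC, beside -0.06 over all genes, and 1.66 for NF1-labelled against NSC, beside 0. Both comparisons use the same 3 NSC libraries, so they are not independent of each other. The count of 8 in LTR lay between 7 and 9 when single libraries were left out, and the count of 8 in the NF1-labelled group was 5 without NSC 1 or without NSC 5, 6 without NF1 1 or NF1 3, and 10 without NF1 2 or with both NF1 2 and NSC 3 left out.

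**Figure D1:**
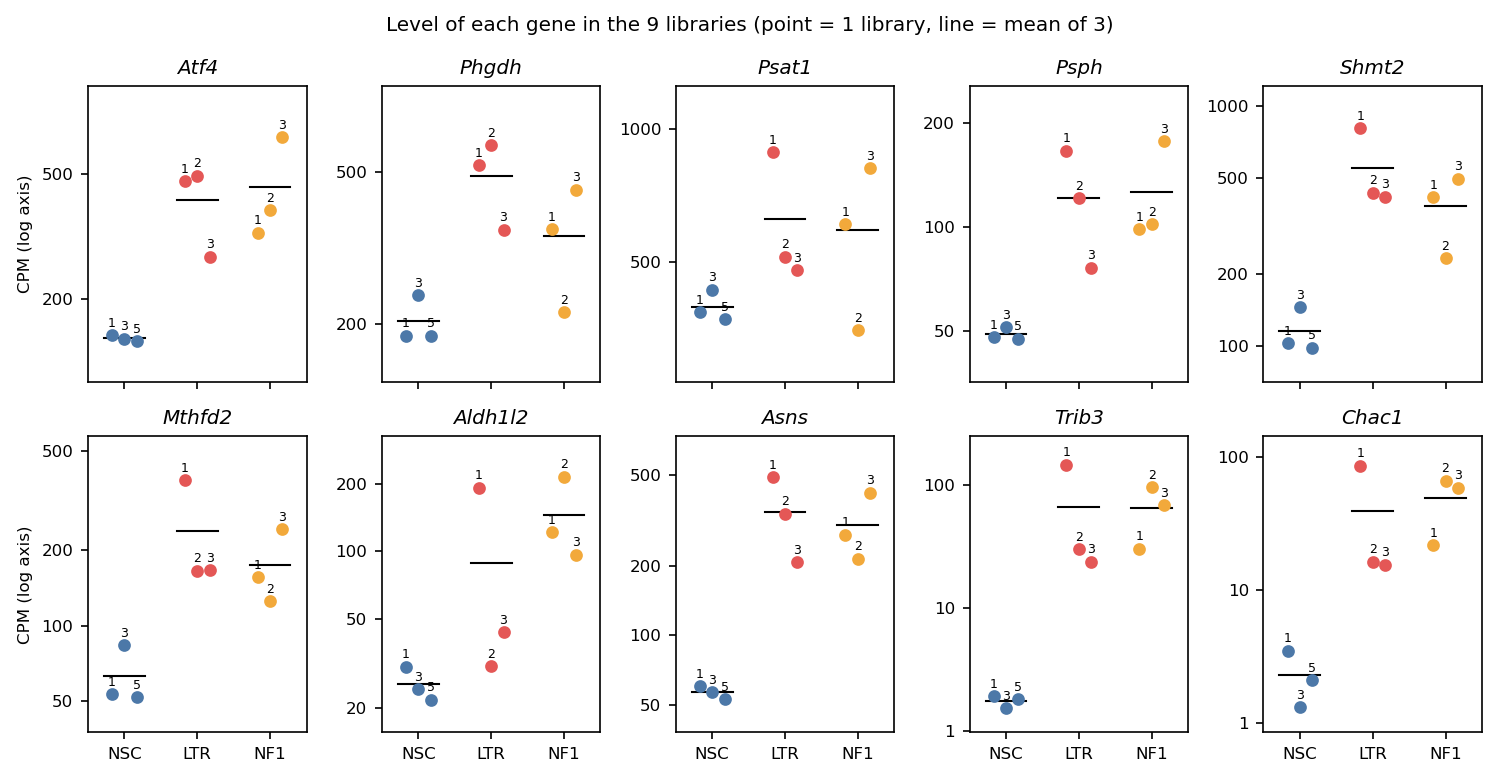
Level of each of the 10 genes in CPM (log axis, a separate range for each gene) in the 9 libraries, with 1 point per library, its number above it and a line at the mean of each group of 3. All LTR points lie above all NSC points for every gene, and NF1 2 is within the NSC range for Phgdh and below it for Psat1.

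ATF4 binds DNA with a partner of the C/EBP family at a composite element, and the core of that element was searched for as TGATGNAA on either strand (TTNCATCA when it lies on the other strand) in the RefSeq promoter windows of build GRCm38.p6, which run from 250 bases before to 50 bases after an annotated start. The promoter table held 9 of the 10 genes, with 10 windows in all. Asns, Trib3 and Chac1 each had 1 match, which is 30.0% of the windows. The share was 3.97% of all 32851 promoter windows and 2.2% of the 14003 windows of genes tested here. These are all the matches among the 10 genes, shown together with that of Pck2, the gene closest to their mean profile. Bcat1, also among the 5 closest to that mean, and Sars, among the 5 closest to Atf4, had no match. The 10 genes were gathered around Atf4 with earlier results of these data known, so the difference in share was not tested. Each line gives 30 bases on the strand of the gene, with the match in capitals.
Asns: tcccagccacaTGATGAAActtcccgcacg
Trib3: ttagctcaggtTTACATCAgccgggcgggg
Chac1: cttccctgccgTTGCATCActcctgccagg
Pck2: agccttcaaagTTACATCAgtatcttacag
The Asns stretch is chr6:7693214-7693243 on the minus strand, with the match at -23 to -16 from the RefSeq start (the start is +1 and there is no 0), and it falls inside the longer gene model of GENCODE M21. The Trib3 stretch is chr2:152344028-152344057 on the minus strand, with the match at 15 to 22, inside the first exon by the RefSeq start but upstream of the shorter gene model of GENCODE M21. The Chac1 stretch is chr2:119351038-119351067 on the plus strand, upstream of the gene with the match at -193 to -186, and the Pck2 stretch is chr14:55540152-55540181 on the plus strand with the match at -103 to -96. Atf4, Phgdh, Psat1, Psph, Shmt2 and Mthfd2 had no match of these letters in their windows. The Mthfd2 window lies 8407 bases from the RefSeq start of the gene, so the sequence at that start was not searched. Matches were not confined to genes that were higher in the tumour groups. Of the genes in the 6 lists described below, Slc1a4 had 1 match and was lower in both. Slc7a11 and Aars had 2 matches each and passed the test in neither. Their windows too lie away from the RefSeq starts of the genes, by 55474 and 6064 bases. By list, a match was found in 5 of 16 stress genes, 2 of 9 transporters, 5 of 13 synthetases and 3 of 12 amino acid synthesis genes. None was found in 22 folate genes or 7 eIF2alpha genes. A match is a description of the sequence and does not show binding.

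Atf4 (ENSMUSG00000042406, chromosome 15, 80255184 to 80257541, plus strand) encodes the transcription factor itself. Its level was 154, 150 and 147 CPM in NSC 1, 3 and 5, 474, 493 and 273 CPM in LTR 1 to 3, and 325, 383 and 652 CPM in the NF1-labelled libraries 1 to 3. The NSC libraries lay within a few per cent of each other, every tumour library was above them, and LTR 3 was the lowest tumour library. The means were 150 ± 3.4 CPM (SD, n = 3) in NSC, 414 ± 122 CPM in LTR and 453 ± 174 CPM in the NF1-labelled group. Atf4 was 2.75-fold higher in LTR (log2 fold change 1.46 ± 0.31 SE, adjusted p = 0.00784) and 3.02-fold higher in the NF1-labelled group (1.59 ± 0.31, adjusted p = 0.00799). These are levels of the mRNA, and the protein was not measured.

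Asns (ENSMUSG00000029752, chromosome 6, 7675169 to 7693254, minus strand), which makes asparagine from aspartate and carries the first of the promoter matches, was at 60.3, 56.6 and 52.8 CPM in NSC. It stood at 488, 339 and 208 CPM in LTR and at 275, 216 and 418 CPM in the NF1-labelled libraries. The lowest tumour library, LTR 3, was more than 3-fold above the highest NSC library. The differences were 6.1-fold in LTR (log2 fold change 2.61 ± 0.35, adjusted p = 0.00143) and 5.35-fold in the NF1-labelled group (2.42 ± 0.35, adjusted p = 0.00244). Asns passed the test under each of the 19 alternatives tried for either comparison, as did Shmt2, Trib3 and Chac1.

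The 3 enzymes of serine synthesis differed less than Asns. Phgdh (ENSMUSG00000053398, chromosome 3, 98313170 to 98339990, minus strand) catalyses the first step, from 3-phosphoglycerate. Its level was 187, 239 and 187 CPM in NSC, 523, 589 and 354 CPM in LTR, and 355, 215 and 451 CPM in the NF1-labelled libraries. LTR was above NSC in every library, while NF1 2 lay inside the NSC range. Phgdh was 2.39-fold higher in LTR (log2 fold change 1.26 ± 0.3, adjusted p = 0.0123; 1.19 and adjusted p = 0.0516 without NSC 1). For the NF1-labelled group the value was 0.74 ± 0.3 (adjusted p = 0.102), and without NF1 2 it was 0.99 with an adjusted p of 0.0117. Processed pseudogenes of Phgdh with at least 95% identity over 200 bases could take some of its reads: 7 of them are in the table, summed to 5.56 ± 3.03 CPM in NSC, 17.3 ± 5.5 CPM in LTR and 15.9 ± 2.98 CPM in the NF1-labelled group, and the most abundant, Gm7901, held 2.61% as many counts as Phgdh.

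Psat1 (ENSMUSG00000024640, chromosome 19, 15904678 to 15947337, minus strand), the aminotransferase of the middle step, had the smallest differences of the 10 genes. It stood at 384, 432 and 370 CPM in NSC, 886, 513 and 478 CPM in LTR, and 609, 349 and 815 CPM in the NF1-labelled libraries. All LTR libraries were above NSC, LTR 2 and LTR 3 only slightly, and NF1 2 was below all 3 NSC libraries. The log2 fold change was 0.66 ± 0.34 for LTR (adjusted p = 0.15) and 0.58 ± 0.34 for the NF1-labelled group (adjusted p = 0.234). Without NF1 2 the latter was 0.86 with an adjusted p of 0.0362. The LTR value did not pass under any of the 19 alternatives, with adjusted p between 0.0527 and 0.467.

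Psph (ENSMUSG00000029446, chromosome 5, 129765558 to 129787449, minus strand), the phosphatase of the last step, was at 48.1, 51.3 and 47.6 CPM in NSC. In LTR it was at 166, 121 and 76.3 CPM and in the NF1-labelled group at 98.7, 102 and 177 CPM, with no overlap with NSC. It was 2.47-fold higher in LTR (log2 fold change 1.31 ± 0.31, adjusted p = 0.0126) and 2.57-fold higher in the NF1-labelled group (1.36 ± 0.32, adjusted p = 0.0154). The latter missed the threshold without NSC 1 (adjusted p = 0.0593), NSC 5 (0.0589) or NF1 3 (0.0514). Psph shares 452 exonic bases with Cct6a, a chaperonin subunit gene on the opposite strand at 460 ± 98.9 CPM in NSC, 1030 ± 115 CPM in LTR and 851 ± 373 CPM in the NF1-labelled group. The library kit does not keep the strand, so reads of the shared bases cannot be assigned, and the Psph values are uncertain to that extent.

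Shmt2 (ENSMUSG00000025403, chromosome 10, 127517123 to 127522444, minus strand), the mitochondrial enzyme that moves a one-carbon unit from serine to folate, was at 103, 145 and 98.6 CPM in NSC. Its level was 805, 435 and 418 CPM in LTR and 416, 233 and 498 CPM in the NF1-labelled libraries. LTR 1 was the highest library and NF1 2 the lowest of the tumour libraries, still above NSC 3. The differences were 4.77-fold in LTR (log2 fold change 2.25 ± 0.36, adjusted p = 0.00268) and 3.3-fold in the NF1-labelled group (1.72 ± 0.36, adjusted p = 0.0101).

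Mthfd2 (ENSMUSG00000005667, chromosome 6, 83305691 to 83325908, minus strand), which oxidises the folate-bound unit that SHMT2 releases, followed a like order of libraries. It was at 53.4, 83.4 and 51.8 CPM in NSC, 382, 166 and 167 CPM in LTR, and 156, 125 and 243 CPM in the NF1-labelled libraries. As for Shmt2, NSC 3 was the highest NSC library, LTR 1 stood far above LTR 2 and LTR 3, and NF1 2 was the lowest tumour library. Mthfd2 was 3.79-fold higher in LTR (log2 fold change 1.92 ± 0.4, adjusted p = 0.00702) and 2.78-fold higher in the NF1-labelled group (1.47 ± 0.39, adjusted p = 0.0262). The adjusted p of the latter rose above the threshold when NSC 1 was left out (to 0.0974), and likewise for NSC 5 (0.0972), NF1 1 (0.0582) and NF1 3 (0.0988).

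Aldh1l2 (ENSMUSG00000020256, chromosome 10, 83487450 to 83534140, minus strand), the mitochondrial formyltetrahydrofolate dehydrogenase, gave a different picture in LTR. It was at 30.7, 24.3 and 21.9 CPM in NSC, 192, 30.9 and 43.7 CPM in LTR, and 122, 215 and 96.6 CPM in the NF1-labelled libraries. LTR 2 was level with NSC 1, and LTR 1 alone was far above NSC. The log2 fold change for LTR was 1.79 ± 0.63 with an adjusted p of 0.0503, and 9 of the 19 alternatives put it past the threshold, among them leaving out LTR 2 (2.32, adjusted p = 0.0215), LTR 3 (2.24, 0.0374), NF1 2 (1.8, 0.0314) or NF1 3 (1.85, 0.0448). Without LTR 1 it was 0.55. The NF1-labelled libraries were all above NSC, with a 5.63-fold difference (2.49 ± 0.64, adjusted p = 0.0235) that missed the threshold without NSC 1 (adjusted p = 0.067), NSC 3 (0.0519), NSC 5 (0.0844) or NF1 1 (0.0507). Aldh1l2 shares 1056 exonic bases with D10Wsu102e on the opposite strand, at 81.2 ± 19.9 CPM in NSC, 126 ± 24.4 CPM in LTR and 107 ± 32.7 CPM in the NF1-labelled group, and reads of those bases cannot be assigned to a strand.

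Trib3 and Chac1 had the largest differences. Trib3 (ENSMUSG00000032715, chromosome 2, 152337422 to 152344032, minus strand) encodes a pseudokinase that is induced by ATF4 and restrains it in turn. It was at 1.91, 1.53 and 1.82 CPM in NSC (68 to 85 counts), 146, 29.9 and 23.7 CPM in LTR, and 30.3, 96.2 and 68.4 CPM in the NF1-labelled libraries. Every tumour library was more than 10-fold above every NSC library. The differences were 37.9-fold in LTR (log2 fold change 5.24 ± 0.79, adjusted p = 0.00207) and 37-fold in the NF1-labelled group (5.21 ± 0.79, adjusted p = 0.00296). LTR 1 carried much of the first: without it the log2 fold change was 3.94.

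Chac1 (ENSMUSG00000027313, chromosome 2, 119351229 to 119354381, plus strand) encodes an enzyme that breaks down glutathione. Its level was 3.52, 1.32 and 2.12 CPM in NSC (73 to 133 counts), 85.5, 16.3 and 15.5 CPM in LTR, and 21.7, 66.2 and 58.5 CPM in the NF1-labelled libraries. The tumour libraries were again all above NSC, with LTR 1 highest and LTR 2 and LTR 3 close together. Chac1 was 16.9-fold higher in LTR (log2 fold change 4.08 ± 0.8, adjusted p = 0.00565; 2.79 without LTR 1) and 21.1-fold higher in the NF1-labelled group (4.4 ± 0.81, adjusted p = 0.00618).

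**Figure D2:**
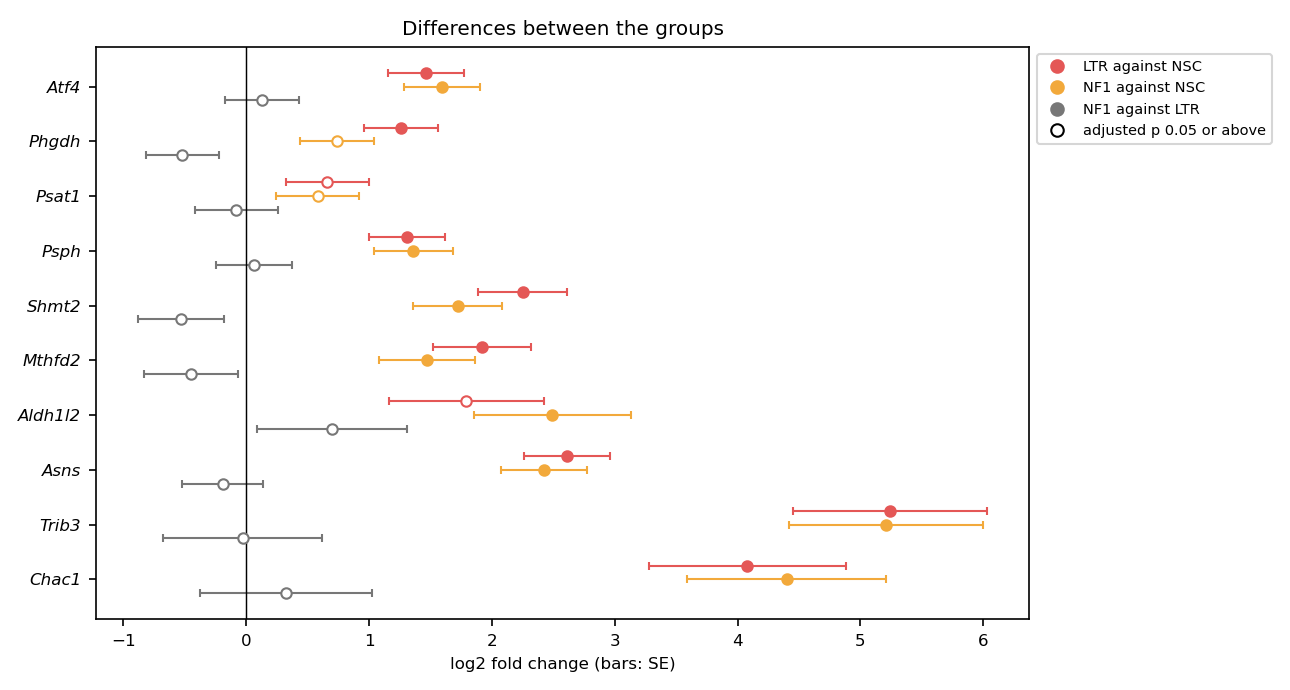
Log2 fold change of each of the 10 genes for the 3 comparisons (x axis), with bars of 1 SE, filled where the adjusted p is under 0.05 and open otherwise. Trib3 and Chac1 lie farthest to the right in both comparisons with NSC, and every point of the comparison between the tumour groups is open.

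Counted by library rather than by test, all 10 genes had every LTR library above every NSC library, which held for 26.9% of all genes tested. For the NF1-labelled group this was so for 8 genes, all but Phgdh and Psat1, beside 18.7% of all genes. Between the tumour groups it was so for none, beside 7.21% of all genes. Levels were also divided by the length of all annotated exons of a gene together, so the order of the genes depends on the annotation. Per kilobase, Psat1 was the most abundant of the 10 in NSC at 92.9 CPM per kb, followed by Phgdh (82.2) and Atf4 (63.7). Trib3 was the least abundant at 0.826 CPM per kb. In LTR the highest were Phgdh (197), Shmt2 (178) and Atf4 (175 CPM per kb), and in the NF1-labelled group Atf4 (192), Psat1 (139) and Phgdh (137 CPM per kb). In the tumour groups the mean of Trib3 was 31.3 and 30.6 CPM per kb, with LTR 1 far above the other LTR libraries.

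No gene of the 10 passed the test between the NF1-labelled group and LTR. In that comparison 0% of all genes were called higher and 0% lower by edgeR, 1596 genes had an unadjusted p under 0.05, and DESeq2 called 328 and limma-voom 1. Phgdh, Shmt2 and Mthfd2 had the most negative values, with log2 fold changes of -0.52 ± 0.3 (adjusted p = 0.592), -0.53 ± 0.35 (0.656) and -0.45 ± 0.38 (0.736). Aldh1l2 had the most positive at 0.7 ± 0.61 (adjusted p = 0.741). Atf4 was at 0.13 ± 0.3 (0.918), Asns at -0.19 ± 0.33 (0.887), Psat1 at -0.08 ± 0.34 (0.959) and Psph at 0.06 ± 0.31 (0.97). For Trib3 (-0.03 ± 0.65, adjusted p = 0.994) and Chac1 (0.32 ± 0.7, 0.911) the error was larger than for Atf4, so moderate differences between the tumour groups were not detectable. The libraries of the tumour groups overlapped for every one of the 10 genes.

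The spread within a tumour group followed particular libraries. LTR 1 was the highest LTR library for 8 of the 10 genes, beside 32.9% of all genes, and for Mthfd2, Aldh1l2, Trib3 and Chac1 it was more than 2-fold above both LTR 2 and LTR 3, beside 2.35% of all genes. LTR 3 was the lowest for 8, beside 21.5% of all genes. In the NF1-labelled group, NF1 3 was the highest library for 7 genes (32.1% of all genes). NF1 2, the library that stood apart, was the highest for Aldh1l2, Trib3 and Chac1, beside 48.4% of all genes, and the lowest for Asns, Phgdh, Psat1, Shmt2 and Mthfd2 (35.1% of all genes were lowest there). NF1 1 was more than 2-fold below both others for Trib3 and Chac1 (3.12% of all genes). Summed over the 10 genes, the level ran from 981 to 1180 CPM in NSC, 2060 to 4150 CPM in LTR and 2000 to 3480 CPM in the NF1-labelled group.

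**Figure D3:**
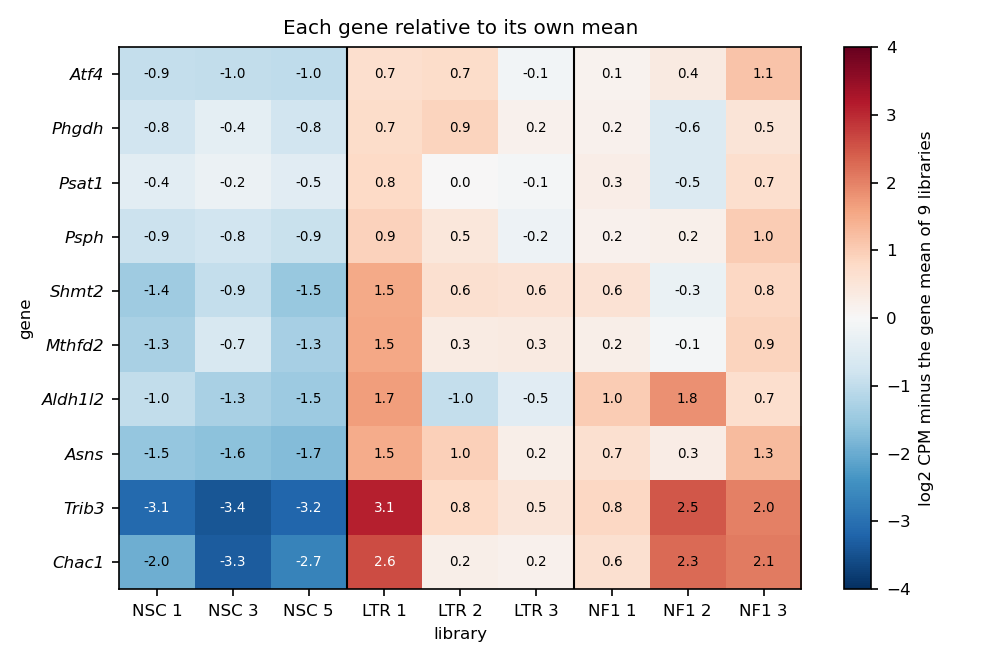
Log2 CPM of each gene minus its mean over the 9 libraries, with the libraries as columns and the genes as rows (red above and blue below the mean). LTR 1 is the darkest red column for Trib3 and Chac1, and NF1 2 is red for Aldh1l2, Trib3 and Chac1 and blue for Phgdh, Psat1, Shmt2 and Mthfd2.

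How alike the profiles of the genes were was measured as the root mean square difference of their log2 CPM over the 9 libraries after each gene was centred on its mean, a description in which all genes share the same libraries. The closest pair was Atf4 and Psph at 0.166, then Mthfd2 and Shmt2 at 0.216. Phgdh and Psat1 were 0.354 apart, Chac1 and Trib3 0.513, and Psat1 and Trib3 the farthest at 2.17. The profiles were centred but not scaled, so the size of the differences between groups enters the value as well as their shape. Among 13384 genes compared, the closest to Atf4 were Hist1h4a (0.161, at under 1 CPM in every library), Eif4ebp1 (0.164), Adi1 (0.176), Gnpnat1 (0.232) and Sars (0.25). The fitted log2 fold changes of Hist1h4a against NSC, 2.19 ± 0.57 in LTR and 2.25 ± 0.57 in the NF1-labelled group, were larger than those of Atf4. At so few counts the prior count of 2 draws the log2 CPM values together, so the rank of Hist1h4a is uncertain. Eif4ebp1, which encodes a repressor of cap-dependent translation, stood at 62, 64.7 and 70.3 CPM in NSC, 240, 261 and 162 CPM in LTR, and 166, 178 and 278 CPM in the NF1-labelled libraries. The closest to the mean of the 10 genes were Pck2 (0.29), Btg1 (0.327), Arid5a (0.33), H2-D1 (0.348) and Bcat1 (0.358). Pck2, the mitochondrial phosphoenolpyruvate carboxykinase, was at 32.4, 36.1 and 30.8 CPM in NSC, 242, 93 and 61.4 CPM in LTR, and 87.5, 75.9 and 142 CPM in the NF1-labelled libraries, with LTR 1 and NF1 3 highest as for most of the 10 genes.

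Other genes of the pathway were described from 6 lists, whose counts are to be read beside the shares of all genes given above (14.9% higher and 20.9% lower in LTR, 10.1% and 13.1% in the NF1-labelled group). The cytosolic aminoacyl-tRNA synthetases, which charge tRNAs with amino acids, were the most uniform: 15 of 20 were higher in LTR and 10 of 20 in the NF1-labelled group, none was lower, and the median log2 fold changes were 0.92 and 0.71. Rars had values of 1.47 ± 0.19 (adjusted p = 0.0014) and 1.63 ± 0.2 (adjusted p = 0.00138), and Cars of 1.63 ± 0.24 (0.00197) and 1.4 ± 0.24 (0.00471). Gars (1.52 ± 0.24, adjusted p = 0.00254, and 1.11 ± 0.24, 0.0119) and Sars (1.52 ± 0.24, 0.00267, and 1.3 ± 0.24, 0.00659) were higher in both as well. Aars, the most abundant that was not called in LTR, was at 0.73 ± 0.28 (adjusted p = 0.0673) there and at 0.61 ± 0.28 (0.138) in the NF1-labelled group. The counts were 8 and 5 without NSC 1 and 9 and 6 without NSC 5.

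Among 17 of 18 stress response factors and feedback genes that could be tested, 6 were higher and 1 lower in LTR, and 8 higher and 1 lower in the NF1-labelled group (medians 1.06 and 0.94). Eif4ebp1 was higher in both (log2 fold change 1.75 ± 0.26, adjusted p = 0.00192, and 1.66 ± 0.26, 0.00333), as was Nupr1, a small stress-induced chromatin protein (1.96 ± 0.45, 0.0102, and 2.95 ± 0.46, 0.00346). Ndrg1 (3.27 ± 0.67, adjusted p = 0.0068, and 2.8 ± 0.66, 0.0163) and Ero1l, an oxidase of the endoplasmic reticulum (1.98 ± 0.45, 0.0105, and 2.63 ± 0.47, 0.00543), were also higher in both. The 1 gene lower in both was Gdf15, a secreted stress cytokine, which is named after its values were seen: it was at 3.15, 15.8 and 3.41 CPM in NSC and at 0.352 CPM or less in every tumour library. Ddit4 in LTR (0.41 ± 0.27, adjusted p = 0.266) and Atf5 in the NF1-labelled group (0.45 ± 0.43, 0.476), each the most abundant not called, missed the threshold. Without LTR 1 the counts for LTR were 4 higher and 3 lower. For the NF1-labelled group 3 were higher without NSC 1 and 4 without NSC 5, while 2 were lower without NF1 2 and 0 without NF1 1.

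The 13 amino acid transporters did not move in 1 direction. In LTR 1 was higher and 3 were lower (median log2 fold change -0.14), and in the NF1-labelled group 1 was higher and 2 were lower (median 0.12). Slc1a5, a glutamine transporter, was higher in LTR (1.8 ± 0.41, adjusted p = 0.0105) and, with overlapping libraries, in the NF1-labelled group (1.47 ± 0.41, 0.0312). Slc1a4, a transporter of serine and alanine, was lower in LTR (-1.78 ± 0.4, adjusted p = 0.00968) and in the NF1-labelled group (-1.27 ± 0.39, 0.0455), as was Slc36a4 (-1.37 ± 0.26, 0.00512, and -1.16 ± 0.26, 0.0138). Slc38a2, the most abundant of the list that was not called, was at -0.01 ± 0.24 (adjusted p = 0.983) and 0.12 ± 0.24 (0.746). The counts were 2 higher and 2 lower in LTR without LTR 3. In the NF1-labelled group they were 0 higher and 1 lower without NSC 1, NSC 5, NF1 1 or NF1 3, 1 and 1 without NSC 3, 2 and 2 without LTR 1, and 2 and 1 without LTR 3.

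Of 16 other genes of amino acid synthesis, 8 were higher and 2 lower in LTR and 5 higher and none lower in the NF1-labelled group (medians 0.95 and 0.72). Bcat1, the cytosolic branched-chain aminotransferase, was higher in both (log2 fold change 2.27 ± 0.28, adjusted p = 0.00126, and 1.92 ± 0.28, 0.00261), as was Ass1, which makes argininosuccinate (3.14 ± 0.51, 0.0028, and 2.32 ± 0.5, 0.0114). Asl, the next enzyme of arginine synthesis, was higher in LTR (1.17 ± 0.26, adjusted p = 0.00867) and at 0.74 ± 0.25 (0.0628) in the NF1-labelled group. Lower in LTR were Cbs, which joins serine to homocysteine (-4.76 ± 1.13, adjusted p = 0.012; -3.12 ± 1.04 and 0.0571 in the NF1-labelled group), and Glul, the glutamine synthetase (-1.92 ± 0.5, 0.0167). Glul was the most abundant of the list not called in the NF1-labelled group (-0.98 ± 0.48, adjusted p = 0.169), and NF1 2 was at 415 CPM against 111 and 97.9 CPM in NF1 1 and NF1 3. Got2 was not called in LTR (0.19 ± 0.25, adjusted p = 0.568). Without NSC 1 the higher genes numbered 5 in LTR and 1 in the NF1-labelled group. For the latter they numbered 2 without NSC 3 or NF1 3 and 3 without NSC 5 or NF1 1. The lower genes numbered 1 in LTR without LTR 3, and in the NF1-labelled group 3 without NF1 2 and 2 without LTR 1.

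Of the other folate and one-carbon genes, 25 of 26 could be tested. In LTR 8 were higher and 4 lower (median 0.66), beside 14.9% and 20.9% of all genes. In the NF1-labelled group 3 were higher and 2 lower (median 0.44), shares near the 10.1% and 13.1% of all genes. Ggh, which trims the glutamate tail of folates, had the smallest adjusted p among the higher genes in both (log2 fold change 2.24 ± 0.24, adjusted p = 0.000718, and 2.96 ± 0.24, 0.000291). Shmt1, the cytosolic counterpart of Shmt2, was higher in LTR (1.42 ± 0.34, adjusted p = 0.0117), as was Ppat, the first enzyme of purine synthesis (1.03 ± 0.25, 0.0125). In the NF1-labelled group these were at 0.5 ± 0.33 (adjusted p = 0.29) and 0.67 ± 0.25 (0.077). Slc25a32, a mitochondrial folate carrier (0.97 ± 0.27, adjusted p = 0.0214, and 0.97 ± 0.27, 0.0305), and Mtfmt, which formylates the mitochondrial initiator tRNA (0.73 ± 0.22, 0.0275, and 0.73 ± 0.22, 0.0378), were higher in both. Gldc, the decarboxylase of the mitochondrial glycine cleavage system, was lower in both (-1.91 ± 0.27, adjusted p = 0.00166, and -3.62 ± 0.29, 0.000255), and so was Sardh, the sarcosine dehydrogenase (-1.68 ± 0.22, 0.00139, and -1.51 ± 0.22, 0.00266). Mat2a was not called in LTR (0 ± 0.2, adjusted p = 0.988).

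Aldh1l1, the cytosolic relative of Aldh1l2 and an astrocyte marker in brain, had fold changes opposite in sign to those of Aldh1l2. Neither comparison with NSC called both genes, and NF1 2 was the highest tumour library for each. Aldh1l1 was at 903, 1440 and 781 CPM in NSC, 53.4, 75.9 and 38.6 CPM in LTR, and 56.1, 522 and 46.6 CPM in the NF1-labelled libraries. The 5 tumour libraries other than NF1 2 were all more than 10-fold below the lowest NSC library, and NF1 2 lay between. The log2 fold change was -4.22 ± 0.92 in LTR (adjusted p = 0.00843) and -2.32 ± 0.84 in the NF1-labelled group (adjusted p = 0.0742). The counts of the whole list moved with single libraries. Without NF1 2, 13 genes were higher in LTR, and 12 were higher and 5 lower in the NF1-labelled group. With NSC 3 left out as well, 15 were higher in LTR, and 14 were higher and 4 lower in the NF1-labelled group. The higher genes in LTR numbered 1 without NSC 1, 2 without NSC 5 and 5 without LTR 3, and those in the NF1-labelled group 1 without NSC 1, NSC 5, NF1 1 or NF1 3.

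Upstream of Atf4, the 9 genes of eIF2alpha kinases and their regulators had medians of -0.13 in LTR and -0.16 in the NF1-labelled group, with 2 higher and 1 lower in the first and 3 higher in the second. Eif2s1, which encodes eIF2alpha itself, was higher in both (log2 fold change 1.01 ± 0.32, adjusted p = 0.0374, and 1.05 ± 0.32, 0.0448, the latter with overlapping libraries), and so was Nck1 (0.72 ± 0.2, 0.0237, and 0.87 ± 0.2, 0.0163). Eif2ak3, the kinase PERK of the endoplasmic reticulum, was lower in LTR (-1.39 ± 0.47, adjusted p = 0.0445) and at -0.23 ± 0.46 (0.749) in the NF1-labelled group. Gcn1l1 was at -0.11 ± 0.31 (adjusted p = 0.797) and -0.34 ± 0.31 (0.459).

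Eif2ak4, which encodes GCN2, the kinase that senses uncharged tRNA, was at 38, 23 and 33.7 CPM in NSC and 32.7, 22.9 and 29.9 CPM in LTR. In the NF1-labelled libraries it was at 297, 39.2 and 441 CPM, so that NF1 1 and NF1 3 were far above all others and NF1 2 was close to NSC 1. The log2 fold change against NSC was 3.04 ± 0.69 (adjusted p = 0.0144), and against LTR it was 3.18 ± 0.69 (adjusted p = 0.226). The list's counts rest on single libraries. In LTR none was called without NSC 1, NSC 5, LTR 2 or LTR 3, 1 higher and none lower without LTR 1, 1 and 1 without NF1 1, 2 and 3 without NF1 2, and 2 and 2 without NF1 3. In the NF1-labelled group 1 was higher without NSC 1 or NF1 3, none without NSC 5, 2 higher and 1 lower without NSC 3, and 3 higher and 2 lower without NF1 2.

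**Figure D4:**
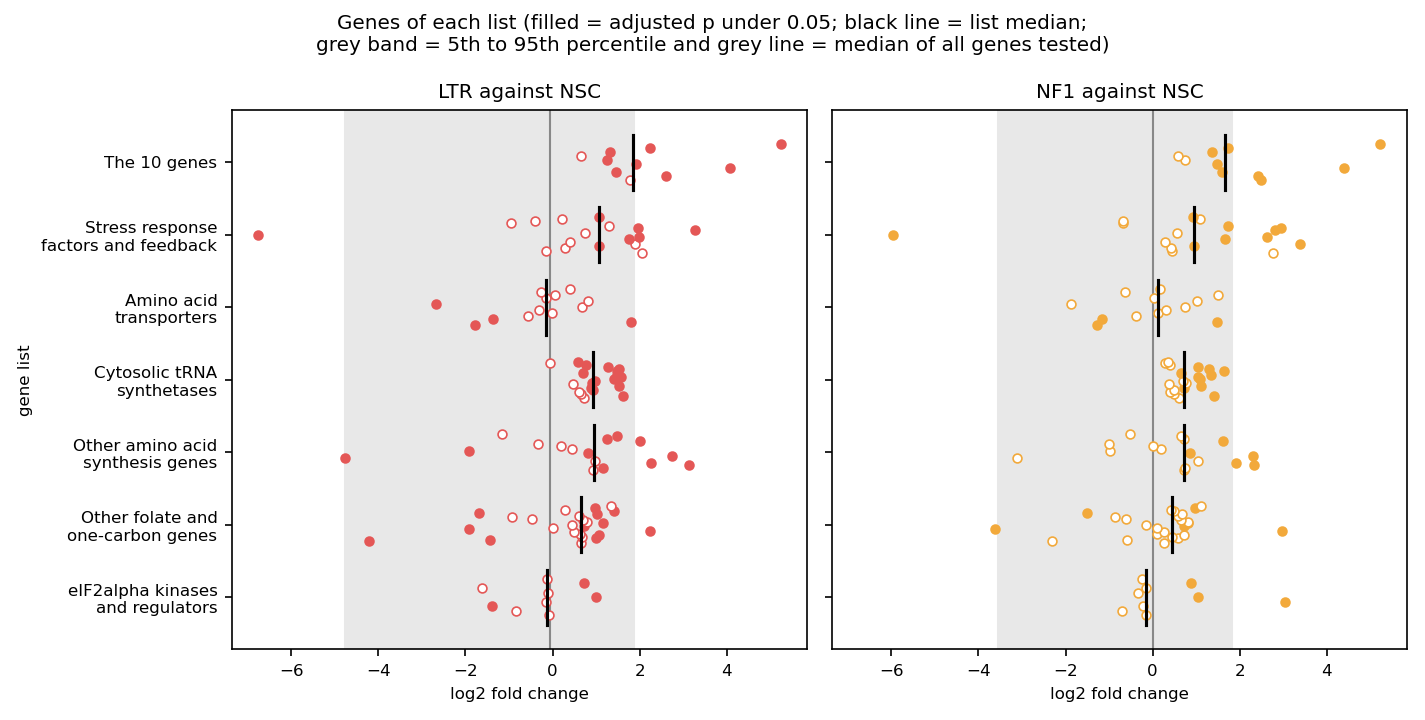
Log2 fold change of every tested gene of the 10 genes and the 6 lists (rows), for LTR against NSC on the left and NF1-labelled against NSC on the right, filled where the adjusted p is under 0.05, with a black line at each median. The grey line and band mark the median and the 5th to 95th percentile of all genes tested (-4.77 to 1.88 and -3.55 to 1.82), and the medians of the 10 genes, 1.86 and 1.66, lie to the right of every list median.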

How the data were processed

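RNA was sequenced from 9 cultures, 3 in each group, with NEBNext Ultra RNA libraries, per the labels' protocols. The values the authors deposited are whole-number counts of reads per gene, not normalized. Per the submitters' processing notes, the tools were HTSeq, DESeq2 1.8.2 and STAR 2.5.2a, with the builds mm10 and GRCm38, their roles not stated. For the annotation release, counting mode and strand setting, nothing is given in the sources used here. Coordinates and exon lengths are from GENCODE M21 (GRCm38), which holds 47224 of the 47729 identifiers. Promoter sequences are from RefSeq (GRCm38.p6).

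The test was edgeR's quasi-likelihood F test (edgeR 4.0.16 with limma 3.58.1 in R 4.3.3). All 9 libraries entered 1 model of 3 groups. Low genes were removed by filterByExpr with a minimum count of 10, leaving 15696, libraries were scaled by TMM, and p-values had Benjamini-Hochberg adjustment over all genes tested. A gene was called at an adjusted p under 0.05. Standard errors come from the log2 fold change and its F statistic, and fitted values carry a prior count of 0.125. Centred log2 CPM used a prior count of 2. The script was tested on simulated data.

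The 10 genes and all lists were chosen with earlier results of these data known. Every one of the 10 is given in each library. From each list the rule named up to 3 called genes per direction and comparison with the smallest adjusted p and at least 10 CPM in the higher group, plus the most abundant gene not called. Aldh1l1 and Eif2ak4 fall under that rule. One result under the rule is not reported here. Pseudogene copies were found with blastn (95% identity over 200 bases).

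Within groups, counts of any 2 libraries differed beyond sampling noise, so none is a copy of another. NSC 1 and NSC 5 were the closest pair, with a Pearson correlation of log2 CPM of 0.991. With NSC 3 they correlated at 0.958 and 0.953. Alternatives were other scalings (DESeq2 size factors, upper quartile, library totals), DESeq2 1.42.0, limma-voom, testing without a filter or only genes at 10 CPM in 3 libraries, only the 6 libraries compared, a replicate block, NF1 2 and NSC 3 left out together, and each library left out in turn.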

Additional observations from a re-analysis of the deposited data

How the results depend on the processing

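None of the 10 genes changed the sign of a called value under the 19 alternatives for each comparison. The count of 8 higher in LTR was 7 to 9 with single libraries left out, and that of 8 in the NF1-labelled group 5 to 10. Lower genes numbered 0 throughout, and 0 passed between the tumour groups under any alternative, each tool included. With the replicate block, 5 of the 10 genes were higher in LTR and 4 in the NF1-labelled group, and 3477 and 1942 genes were called in all, for LTR and NF1-labelled against NSC. Atf4 then had adjusted p of 0.0649 and 0.0682. The numbers do not pair the cultures by the labels, and same-numbered libraries correlated between -0.18 and 0.12 after group means were taken out, so the block takes up degrees of freedom (3 in place of 6 remain). Genes called for LTR against NSC numbered 5634 and ran from 3281 to 7640 with 1 library left out (3281 without NSC 1, 3452 without NSC 5, 3651 without LTR 3). For NF1-labelled against NSC they numbered 3631 and ran from 1752 (without NSC 1) to 6900 (without NF1 2), with 1857 without NSC 5, 1898 without NF1 1 and 2373 without NF1 3. They numbered 2116 with the filter of 10 CPM, where fewer genes are tested, and 7485 with NF1 2 and NSC 3 left out. Between the tumour groups the 0 genes called became 328 with DESeq2, 1 with limma-voom, 52 with no filter, 104 with NF1 2 and NSC 3 left out, and 0 to 34 with 1 library left out (34 without NF1 2, 1 without NSC 3); the cause was not tested. For the 6 lists, counts are given as higher and lower, LTR first and the NF1-labelled group second, where they moved by over 1.5 times. With the replicate block they were 9 and 0, then 2 and 0, for the synthetases, 3 and 1 in both for stress genes, 3 and 2, then 3 and 1, for amino acid synthesis, 3 and 4, then 1 and 3, for folate genes, and 0 and 1, then 1 and 0, for the eIF2alpha list, and no transporter was called in the NF1-labelled group. With the filter of 10 CPM, stress genes gave 6 and 0, then 5 and 0. Transporters in the NF1-labelled group gave 1 and 1 with that filter or library totals and 0 and 2 with limma-voom. Amino acid synthesis genes there gave 7 and 1 with DESeq2 and 5 and 1 with limma-voom or no filter, and folate genes 1 and 3 with no filter and 1 and 2 with only the 6 libraries compared. The eIF2alpha list in LTR gave 2 and 3 with DESeq2, 1 and 2 with no filter, and 2 and 2 with limma-voom or only 6 libraries. With NF1 2 and NSC 3 left out, amino acid synthesis genes in the NF1-labelled group gave 7 and 3, the eIF2alpha list 2 and 3, then 3 and 3, and transporters in LTR 2 and 3.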
